A study of Citrullus lanatus with 30 samples.

Results

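Gene-poor stretches of the watermelon (Citrullus lanatus) chromosomes were described here through the loci they hold. A locus on chromosomes 1 to 11 was taken as gene-poor when at most 25 other loci had their midpoint within 500 kb on either side of its own midpoint. This rule used positions only and found 1707 loci among the 22541 on chromosomes (7.57%) and the 22596 listed in all. The remaining 20834 chromosome loci are called other loci below. Plant chromosomes commonly have gene-dense arms and gene-poor interiors, where transposons and other repeats are frequent, the chromatin is compact and the DNA carries much methylation. Methylation in and near a gene can go with silencing of its transcription, and 5-azacytidine is a nucleoside analogue that inhibits DNA methyltransferases. Where the centromeres or repeats of these chromosomes lie, and what the DNA methylation was, was not analysed here.

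Transcripts were measured by RNA-seq in fruit. The flesh treated with 5_Aza (20 DAP, 3 libraries, whose treatment label is spelled 5-zazcytidine and carries no dose or time) had flesh labelled Mock and wild-type as its control (20 DAP, 3 libraries), and neither carries a cultivar label. Rind of cultivar 97103 was sampled in duplicate as R4_CT at 20 DAP and as R4_RF and R2_RF at 30 DAP. Flesh of the same cultivar was followed in triplicate from PD, labelled 0 DAP, through AP at 1, SW at 5, BW at 10 and CT at 20 to RF at 30 DAP. For the rind libraries the source label says rind but the tissue label says flesh, and what R2 and R4 stand for is not explained. DAP is the unit of the age labels, which do not spell it out. Loci carry coordinates on the WM97pbV1 sequences and no names, so flesh and rind could not be checked by marker genes, and the product, exons and UTRs of each locus were not analysed here.

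Values were deposited as FPKM, which are read numbers already divided by locus length and library total, so read depth is unknown. Summed FPKM per library lay between 762714 and 886495, and replicates correlated at 0.993 to 0.997 on the log2(FPKM + 1) scale. Of the 30 libraries 28 were used per locus, because the rows of AP replicates 1 and 2 are out of step with their coordinates, and 1 DAP therefore rests on 1 library. Whether replicates are separate fruits is not labelled, so p-values cover only the spread between libraries, which may be technical. Stage libraries are written with 6 significant digits and all others with 6 decimals. A rind library differs from stage flesh in tissue, number format and a later block of sample numbers, and these cannot be told apart. Fewer cells of a type and less RNA per cell cannot be told apart in bulk tissue either.

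Gene-poor loci lay in long, sparse runs. They formed 46 stretches without any other locus between them, and the 28 stretches with 10 or more loci held 1635 of the 1707. Those 28 covered 116.9 Mb, 32.2% of the 362.7 Mb between the first and last loci of the 11 chromosomes, at 14.0 loci per Mb against 62.2 over whole chromosomes. A gene-poor locus had a median of 16 other loci within 500 kb, against 103 for the other loci. No gene-poor locus overlapped another listed locus. For 23 of them (15 on chromosome 4 and 8 on chromosome 8) the window ran past the first or last locus of the chromosome, which by itself lowers the number of neighbours.

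The stretch with the widest span was chr9:14672399-28278381 (13.61 Mb, 201 loci), followed by chr4:3785731-17380417 (13.59 Mb, 201 loci) and chr7:7186832-19549028 (12.36 Mb, 132 loci). The last contained the widest empty interval of the 11 stretches named here, 1143.3 kb without a locus. On the other chromosomes the stretches with the most loci were chr1:18309415-24421613 (70 loci), chr2:12135227-22922175 (141 loci), chr3:18865211-22596473 (63 loci), chr5:18424399-22189896 (46 loci) and chr6:13600534-20627703 (74 loci). The remaining ones were chr8:5186912-14751033 (141 loci), chr10:10893238-17917381 (73 loci) and chr11:13079186-19228668 (82 loci). Chromosome 4 held the highest share, 282 of 1145 loci (24.6%), and chromosome 5 the lowest, 114 of 2936 (3.88%). On chromosome 4 gene-poor loci began at its first listed locus, in the stretch chr4:28916-3138865 with 67 loci.

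Transcripts were found from most gene-poor loci, at a lower median level than from the other loci. The median gene-poor level per library ranged from 3.31 to 6.26 FPKM, against 4.56 to 7.96 FPKM for the other loci, and it was the lower of the pair in all 28 libraries. The ratio of both medians lay between 0.704 and 0.817. It was 0.7978 or more in every rind library and 0.7915 or less in every flesh library, and the cause was not tested. Gene-poor and other medians in rind were 5.83 and 7.25 FPKM in R4_CT, 5.41 and 6.71 in R4_RF, and 5.20 and 6.38 in R2_RF. At 5_Aza the medians were 5.22 ± 0.12 FPKM for gene-poor loci and 7.24 ± 0.08 FPKM for other loci (SD, n = 3). In Mock they were 4.51 ± 0.16 and 6.13 ± 0.12 FPKM (SD, n = 3). Over the stages gene-poor medians were 6.10 ± 0.05 FPKM in PD, 5.63 in AP (n = 1), 6.16 ± 0.10 in SW, 4.81 ± 0.08 in BW, 3.35 ± 0.05 in CT and 3.61 ± 0.08 in RF (SD, n = 3 elsewhere). Medians of the other loci fell alongside, at 7.88 FPKM in PD, 7.78 in AP, 7.92 in SW, 6.23 in BW, 4.63 in CT and 4.76 in RF.

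**Figure D1:**
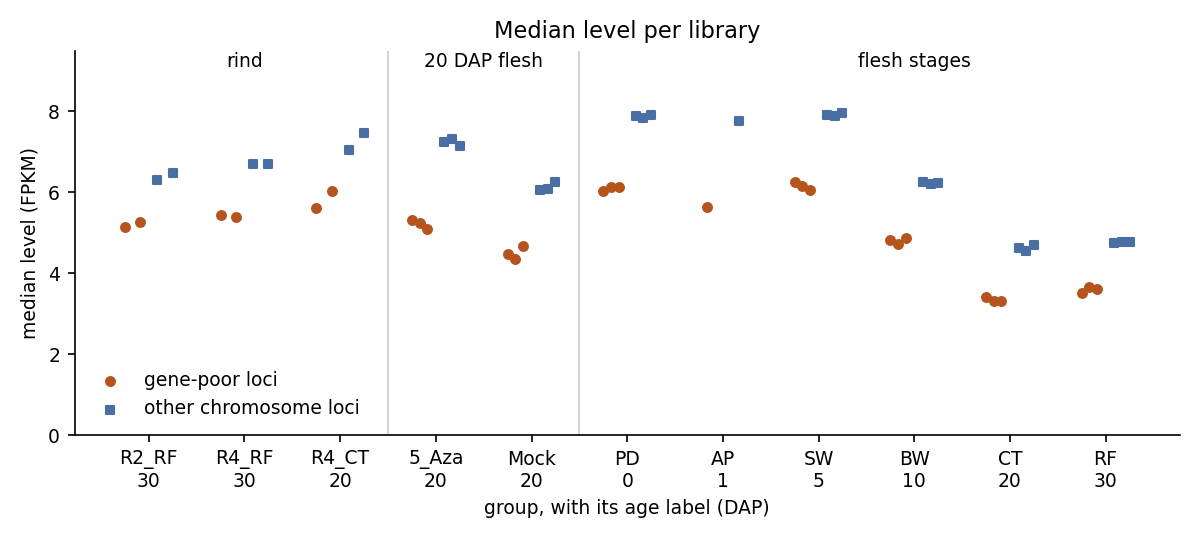
Median FPKM per library (points) of gene-poor loci (circles) and other chromosome loci (squares), by group with its age label on the horizontal axis. The circles, between 3.31 and 6.26 FPKM, lie under the squares in each of the 28 libraries.

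The classes differed most among loci with little or no transcript. At 0 FPKM in every library stood 172 gene-poor loci (10.1%), against 932 other loci (4.47%). Under 1 FPKM in every library stood 391 gene-poor loci (22.9%), against 3151 other loci (15.1%). At the other end the shares were close, with 446 gene-poor loci (26.1%) and 5272 other loci (25.3%) at 10 FPKM or more in every library. At least 100 FPKM in some library was reached by 208 gene-poor loci (12.2%) and 3141 other loci (15.1%). These shares were not tested against each other, since neighbouring loci are not independent.

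The share of loci under 1 FPKM in every library followed the density of loci in steps beyond the limit of 25. It was 28.3% of 53 loci with 0 to 5 others within 500 kb, 25.5% of 243 with 6 to 10, 21.7% of 474 with 11 to 15, 22.2% of 486 with 16 to 20 and 22.8% of 451 with 21 to 25. Outside the rule it was 20.1% of 2199 loci with 26 to 50 others, 16.3% of 2008 with 51 to 75, 14.3% of 5446 with 76 to 100 and 14.3% of 11181 with more. At the limit itself it was 28.8% of the 73 loci with 25 others and 28.9% of the 83 loci with 26 others. Chromosomes differed, from 11.4% of gene-poor loci on chromosome 5 to 30.5% on chromosome 10. On chromosome 5 the other loci stood at 12.5%, so the gene-poor share was the lower there, while on the other 10 chromosomes it was the higher.

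Loci were also unlike in length. The median span of a gene-poor locus was 2510 bp, against 2340 bp for other loci. Spans of 15 kb or more belonged to 129 gene-poor loci (7.56%) and 446 other loci (2.14%), and spans of 400 bp or less to 160 (9.37%) and 1560 (7.49%). The long gene-poor loci had a median of their mean level of 15.7 FPKM, the short ones of 0.706 FPKM. Among loci over 400 and up to 2000 bp long, 30.6% of 563 gene-poor loci and 20.2% of 7526 other loci stayed under 1 FPKM in every library. Among those over 2000 and up to 5000 bp it was 20.3% of 512 and 11.5% of 7762, so the higher silent share was there within length classes too.

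**Figure D2:**
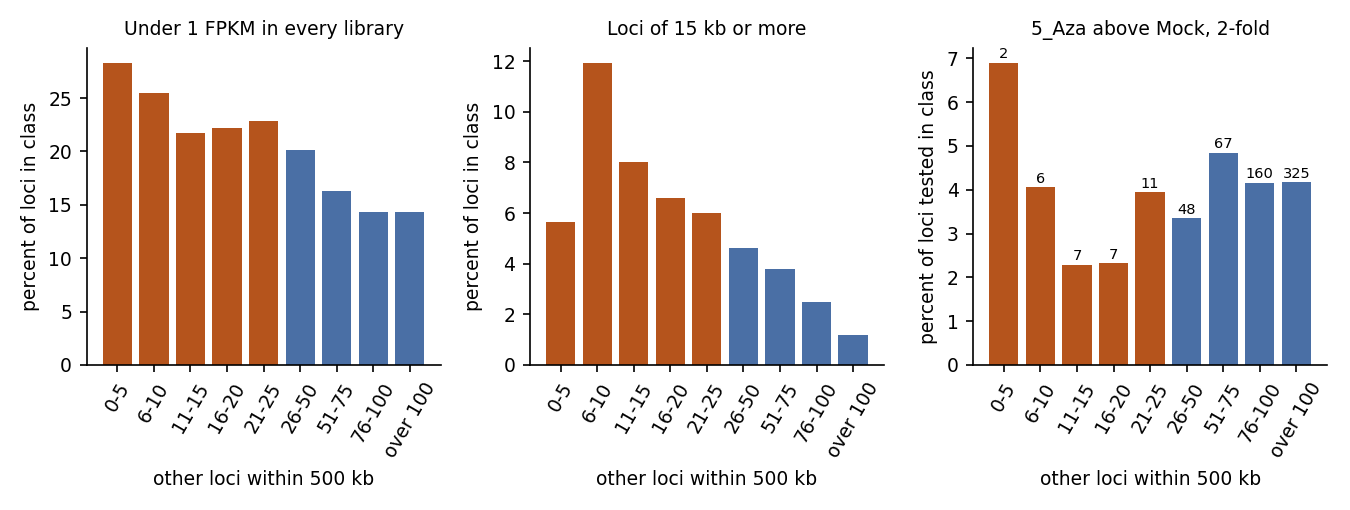
Bars give, for chromosome loci grouped by the number of other loci within 500 kb (horizontal axis), the values named above each panel, with gene-poor classes in one colour and classes beyond 25 others in the second. The share under 1 FPKM in every library is 28.3% in the sparsest class and 14.3% in the densest.

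A single locus carried much of the gene-poor transcript. The highest gene-poor level in every group belonged to chr1:14395071-14396092, a locus of 1022 bp with 18 others within 500 kb. It was at 6769, 6621 and 6609 FPKM in PD, 5965 in AP (n = 1), 20960, 21326 and 18957 in SW, 30530, 30651 and 28132 in BW, 17237, 18103 and 17856 in CT, and 15724, 16496 and 17510 in RF. Every library of 5 DAP and later was thus above every library of 0 and 1 DAP, with the highest values at 10 DAP. The same locus had 9155, 8760 and 8831 FPKM in 5_Aza flesh, against 11286, 11064 and 10969 FPKM in Mock flesh, without overlap. In rind it had 11348 and 10754 FPKM in R4_CT, 11229 and 11461 in R4_RF, and 9354 and 9217 in R2_RF.

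That locus held much of the change in the gene-poor share of all transcripts between PD and BW. Gene-poor loci held 6.80 ± 0.01% of the summed FPKM of chromosome loci in PD, 6.34% in AP (n = 1), 8.53 ± 0.16% in SW, 9.30 ± 0.10% in BW, 7.14 ± 0.05% in CT and 7.85 ± 0.13% in RF (SD, n = 3 elsewhere). The highest share, in BW, included 3.67% from the single locus. The locus was then taken out of the gene-poor part but kept in the sum over chromosome loci. Without it the shares were 5.97% in PD, 5.64% in AP, 5.85% in SW, 5.63% in BW, 5.09% in CT and 5.78% in RF, so the shares of SW and BW were no longer above that of PD. Elsewhere the full share was 6.78 ± 0.02% in 5_Aza and 6.97 ± 0.01% in Mock (SD, n = 3 each), and 5.71% and 5.66% without the locus, which turned the order round. In rind it was 6.90% in R4_CT, 7.12% in R4_RF and 7.50% in R2_RF (n = 2 each).

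**Figure D3:**
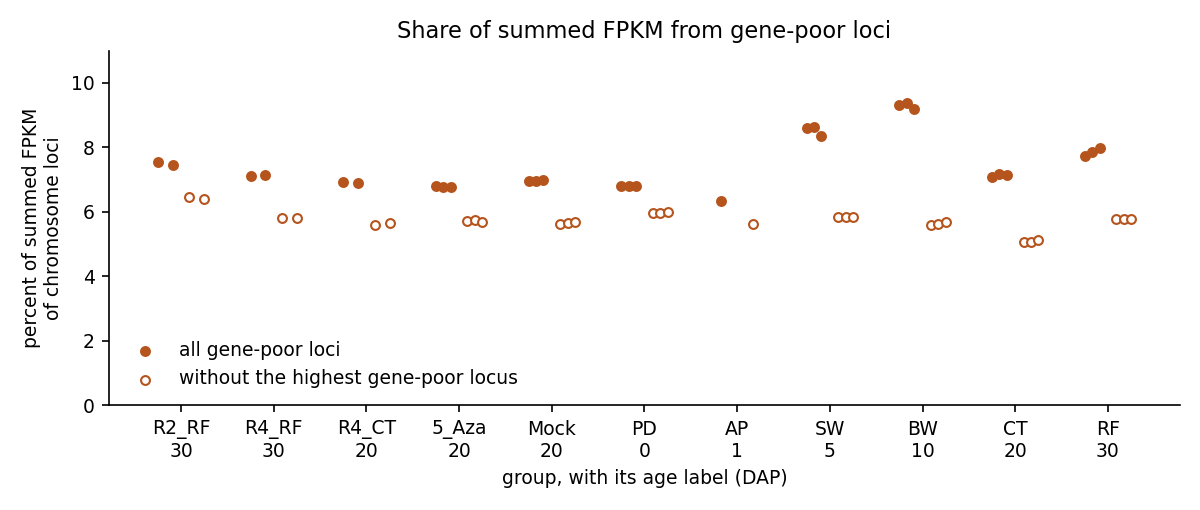
Percent of the summed FPKM of chromosome loci that came from gene-poor loci, per library, with all of them (filled) and without chr1:14395071-14396092 (open), by group with its age label. The filled points peak at 9.30% at 10 DAP, where the open points stand at 5.63%.

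At least 1000 FPKM was reached by 15 gene-poor loci and by 254 other loci, and the 15 had unlike patterns. The locus chr10:20205105-20205488 had a mean of 1265.8 FPKM in PD flesh and 39.6 in RF flesh. The locus chr9:15260044-15260637 had a mean of 288.2 FPKM in PD flesh and 2466.9 in CT flesh. The locus chr2:13600850-13601517 had 6649 and 6111 FPKM in R2_RF rind, against 779, 817 and 841 FPKM in RF flesh. These 3 were chosen after their values were seen, to show the range.

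Changes of 2-fold or more after 5_Aza were few and nearly all upward. Of the 1707 gene-poor loci 1064 passed the filter of 1 FPKM in 3 libraries, and 33 of them (3.10%) rose by 2-fold or more while 3 (0.282%) fell (limma, adjusted p under 0.05). Over all 15552 loci tested 4.09% rose and 0.186% fell, so the gene-poor share of rises was close to the background and somewhat under it. Of the other loci 4.15% rose. Changes of any size past the same threshold were 263 rises (24.7%) and 137 falls (12.9%), against 29.5% and 13.3% of all loci tested. The median log2 fold change was 0.06 over the gene-poor loci tested and 0.07 over all loci tested, or -0.03 and -0.01 with median-of-ratios scaling. Of the 33, 12 were under 1 FPKM in all Mock libraries and passed the filter only through the 3 of 5_Aza. Without 5_Aza replicate 1, 2 or 3 these could not pass, and the count was 21, 20 or 23, against a background of 2.88%, 2.95% or 3.02%. With the same 1064 loci tested, an alternative added after seeing the data, it was 32 to 35 without any of the 6 libraries.

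The largest rise was at chr4:16010462-16013554. It had 27, 23.5 and 28.9 FPKM in 5_Aza flesh, against 0.634, 0.669 and 0.478 FPKM in Mock flesh. The groups did not overlap, which was a condition for naming it. The locus was under 1 FPKM in every stage library, in R4_CT and in R4_RF, where both libraries were at 0. The only other libraries with such levels were those of R2_RF rind, with 30.8 and 28.7 FPKM. The log2 fold change was 4.11 ± 0.10 (SE). Being under 1 FPKM in all Mock libraries, the locus passed the filter only through 5_Aza, so no p-value is given. The second, chr9:27493392-27495394, had 5.04, 5.05 and 6.12 FPKM in 5_Aza flesh, against 0.116, 0.0822 and 0 FPKM in Mock flesh (log2 fold change 2.58 ± 0.12 (SE)). It too passed the filter only through 5_Aza, and no p-value is given. Its only higher values were 18.5 and 20.8 FPKM in R4_CT rind, while R4_RF rind was at 0 in both libraries.

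A further 3 loci rose by 4-fold or more and are named because the count of such rises was 5. That was 15.15% of the 33 risen loci, against 104 of the 600 other loci that rose (17.33%). The locus chr7:7322535-7324027 had 8.69, 9.71 and 9.63 FPKM in 5_Aza flesh, against 0.522, 0.973 and 0.884 FPKM in Mock flesh. It also passed the filter only through 5_Aza. At chr3:14069573-14071167 the values were 89.4, 82.0 and 81.5 FPKM in 5_Aza flesh, against 16, 15.6 and 15.1 FPKM in Mock flesh. At chr8:5378642-5380649 they were 39.1, 40.2 and 40.6 FPKM in 5_Aza flesh, against 8.30, 7.88 and 5.68 FPKM in Mock flesh. None of the 3 had overlapping groups. The chromosome 3 locus was at 92.5 to 93.0 FPKM in PD flesh and at 1.79 to 1.86 FPKM in RF flesh, and its level in 5_Aza flesh lay within that range.

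The 3 falls were at chr3:14257777-14260751, chr10:11786190-11789437 and chr5:15070489-15072595, the last named after its values were seen because the count was 3. The first had 13.9, 14.0 and 15 FPKM in 5_Aza flesh, against 41.4, 37.2 and 38.6 FPKM in Mock flesh, and fell by 1.39 ± 0.06 on the log2 scale (SE; limma, adjusted p = 2.19e-08). The second had 5.97, 5.62 and 5.85 FPKM in 5_Aza flesh, against 15.8, 17 and 17.1 FPKM in Mock flesh (log2 fold change -1.37 ± 0.07 (SE); limma, adjusted p = 8.57e-08). No library of the other group reached into either range, which was a condition for naming these loci. The third had 9.63, 9.22 and 11.5 FPKM in 5_Aza flesh, against 22, 22.9 and 20.8 FPKM in Mock flesh. It was far higher in R2_RF rind, at 225 and 236 FPKM.

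The 33 risen loci were scattered. They lay on all 11 chromosomes in 18 stretches, with at most 4 in a stretch, that of chromosome 7. The closest pair was 32.5 kb apart, and 2 pairs of successive risen loci lay within 100 kb. Their median level was 8.09 FPKM in 5_Aza flesh and 1.80 FPKM in Mock flesh, with a median log2 fold change of 1.37, as it was for the 600 other loci that rose. A mean in at least 1 rind group above that in 5_Aza flesh was found for 21 of the 33 (63.6%) and for 301 of the 600 (50.2%). Under 1 FPKM in every stage library were 7 (21.2%) and 98 (16.3%). How often either holds over all loci tested was not counted, so these shares are not read as traits of risen loci. The 7 were not treated as absent from flesh, because stage libraries have another number format.

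Of 648 gene-poor loci under 1 FPKM in all Mock libraries 21 (3.24%) reached 1 FPKM in all 5_Aza libraries, against 345 of 6572 other loci (5.25%). Loci with a mean under 1 FPKM in Mock passed the filter mainly through their 5_Aza libraries, so their calls are not counted by level. Above that, rises of 2-fold or more were found for 13 of 354 gene-poor loci at 1 to 10 FPKM in Mock (3.67%, other loci 5.23%) and for 6 of 578 at 10 to 100 FPKM (1.04%, other loci 1.64%). At 100 FPKM or more it was 1 of 99 (1.01%, other loci 0.594%), the locus chr2:13600850-13601517 with 1330, 1296 and 1263 FPKM in 5_Aza flesh, against 570, 540 and 514 FPKM in Mock flesh. These differences rest on small counts and were not tested.

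By density, the share of tested loci that rose after 5_Aza had no steady order. It was 2 of 29 loci with 0 to 5 others (6.90%), 6 of 148 with 6 to 10 (4.05%), 7 of 306 with 11 to 15 (2.29%), 7 of 302 with 16 to 20 (2.32%) and 11 of 279 with 21 to 25 (3.94%). Outside the rule it was 3.35% with 26 to 50 others, 4.85% with 51 to 75, 4.16% with 76 to 100 and 4.17% with more. Over all loci tested it was 4.09%. The 2 in the sparsest class were chr1:22669255-22671967, with 8.49, 7.31 and 8.47 FPKM in 5_Aza flesh, against 2.96, 2.79 and 2.27 FPKM in Mock flesh, and chr10:15937459-15938526, with 12.8, 12.4 and 10.1 FPKM in 5_Aza flesh, against 4.23, 4.30 and 4.56 FPKM in Mock flesh. Both were singled out after their values were seen, the first with 1 other locus within 500 kb. None of the 115 long loci tested (15 kb or more) rose by 2-fold, the largest log2 fold change among them being 0.43. Changes of smaller size (limma, adjusted p under 0.05) were 21 rises and 8 falls. The 406 long other loci tested had 75 such rises and 21 such falls. Over all loci tested 29.5% rose and 13.3% fell at any size. The long other loci also had 0 rises of 2-fold among 406.

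**Figure D4:**
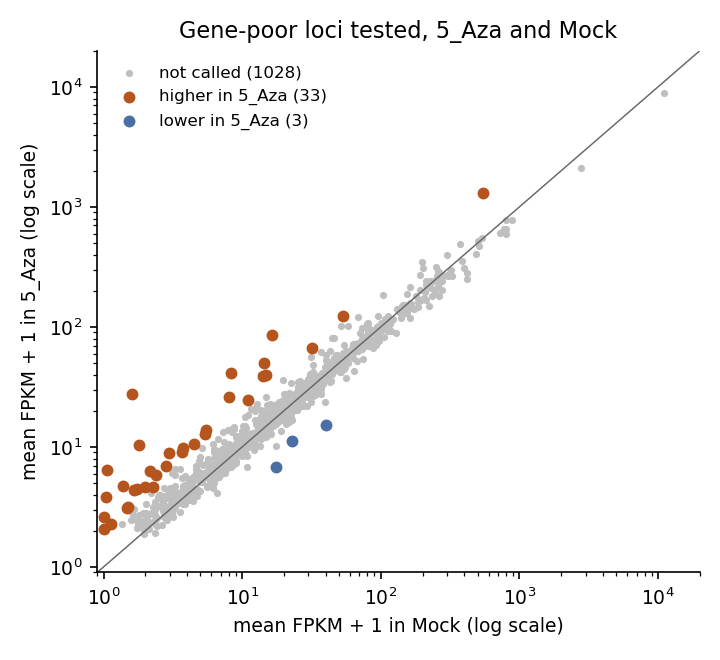
Mean FPKM + 1 in Mock (horizontal, log scale) and in 5_Aza flesh (vertical, log scale) of the 1064 gene-poor loci tested, with the 33 that rose and the 3 that fell by 2-fold or more in colour. Most points lie along the diagonal, and the point farthest above it is chr4:16010462-16013554.

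Most gene-poor loci that could be tested changed during fruit development. Of 1184 with a value in every group of the fit 788 (66.6%) differed over the stages with a range of group means of at least 2-fold (limma F test, adjusted p under 0.05), against 71.2% of all loci tested. Among PD, SW, BW, CT and RF the highest mean of these 788 was that of PD for 310 (39.3%), SW for 142, BW for 65, CT for 59 and RF for 212 (26.9%). Of 11526 other loci that differed 41.5% were highest at 0 DAP and 21.1% at 30 DAP. With median-of-ratios scaling the shares highest at 30 DAP were 27.7% of gene-poor and 21.8% of other loci, so the order did not turn. A mean lower at each step was found for 112 gene-poor loci (14.2%, other loci 17%), a mean higher at each step for 66 (8.38%, other loci 7.51%), and a range of 16-fold or more for 72 (9.14%, other loci 12.2%).

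Between 30 and 0 DAP 220 of 1185 gene-poor loci tested (18.6%) rose and 338 (28.5%) fell by 2-fold or more, where 18.2% and 32.3% of all loci tested did. The median log2 fold change was -0.15 for the gene-poor loci and -0.31 for all loci. With median-of-ratios scaling all loci had a median of -0.06, a shift of 0.24, gene-poor loci had one of 0.10, and the counts were 272 rises and 284 falls, where 22.4% and 27.7% of all loci tested rose and fell. The largest fall was at chr4:1035656-1036636. It had 0.0757, 0.2 and 0.043 FPKM at 30 DAP, against 1421, 1428 and 1397 FPKM at 0 DAP (log2 fold change -10.32 ± 0.21 (SE); limma, adjusted p = 2.21e-14). In between, SW had 84.0, 85.0 and 81.5 FPKM, BW had 9.14, 8.80 and 10.5 FPKM, and CT had 1.16, 1.36 and 0.108 FPKM, the last of them within the range of RF. The locus was at 0 in all 5_Aza and Mock libraries.

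The second fall was at chr4:8244660-8248343, with 0.0986, 0.209 and 0.179 FPKM at 30 DAP, against 403, 390 and 397 FPKM at 0 DAP (log2 fold change -8.42 ± 0.12 (SE); limma, adjusted p = 4.85e-16). The rise of greatest size was at chr9:14861433-14863523, with 602, 588 and 589 FPKM at 30 DAP, against 5.23, 6.14 and 5.99 FPKM at 0 DAP (log2 fold change 6.45 ± 0.05 (SE); limma, adjusted p = 1.57e-18). Its mean was higher at each later stage, with 26.1 to 27.8 FPKM at 5 DAP, 42.4 to 43.0 at 10 DAP and 237 to 253 at 20 DAP. The second rise, at chr4:3604750-3607298, had 94.1, 94.3 and 94.1 FPKM at 30 DAP, against 0.134, 0.181 and 0.296 FPKM at 0 DAP (log2 fold change 6.31 ± 0.09 (SE); limma, adjusted p = 5.34e-16). Its CT libraries, between 37.8 and 41.0 FPKM, lay between those of RF and the rest of the stage libraries.

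From 0 to 5 DAP 101 gene-poor loci (8.52%) rose and 140 (11.8%) fell, where 11.6% and 12.3% of all loci tested did. The largest rise, at chr9:16508311-16508644, had 872, 914 and 916 FPKM at 5 DAP, against 6.52, 11.2 and 14.5 FPKM at 0 DAP (log2 fold change 6.32 ± 0.27 (SE); limma, adjusted p = 1.79e-10). The next, at chr9:25758894-25759496, averaged 984 ± 14.8 FPKM in SW and 16.6 ± 1.14 FPKM in PD (SD, n = 3 each). Both were under 10 FPKM in every RF library. The largest falls were at chr4:1939752-1939973, with 1.82 ± 1.04 FPKM in SW and 196 ± 11.4 FPKM in PD, and at chr9:17750274-17750591, with 0.466 ± 0.418 FPKM in SW and 98.5 ± 9.64 FPKM in PD (SD, n = 3 each). No libraries overlapped at any of the 4, which was a condition for naming them.

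From 5 to 10 DAP 52 gene-poor loci (4.39%) rose and 99 (8.35%) fell, against 5.25% and 10.2% of all loci tested. Scaling by the median of ratios, under which the median over all loci shifted by 0.12, gave 64 rises and 80 falls, so the rises were 34.4% of the calls without it and 44.4% with it, where 6.34% and 8.08% of all loci tested rose and fell. At chr4:1853591-1853902 the level fell to 12.5, 12.4 and 11.5 FPKM at 10 DAP, against 360, 367 and 349 FPKM at 5 DAP (log2 fold change -4.77 ± 0.12 (SE); limma, adjusted p = 1.13e-12). The level at chr2:10731266-10732893 also fell, to 1.09 ± 0.18 FPKM at 10 DAP, against 34.0 ± 1.82 FPKM at 5 DAP. The rises were smaller, to 15.8 ± 2.11 FPKM at 10 DAP against 0.051 ± 0.088 at 5 DAP at chr9:23409366-23410538, and to 10.0 ± 1.18 FPKM against 0.388 ± 0.385 at chr8:14186665-14187105 (SD, n = 3 each).

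From 10 to 20 DAP falls outnumbered rises, 135 (11.4%) to 38 (3.21%), against 13.4% and 5.00% of all loci tested. With that scaling the median over all loci shifted by 0.14, and there were 60 rises and 116 falls, so the rises were 22% of the calls without it and 34.1% with it, where 6.52% and 11.3% of all loci tested rose and fell. The largest fall, at chr5:21334128-21334984, had 32.1, 31.3 and 29.5 FPKM at 20 DAP, against 1119, 1119 and 1111 FPKM at 10 DAP (log2 fold change -5.13 ± 0.09 (SE); limma, adjusted p = 2.69e-14). That locus had been level before, with 974 to 991 FPKM at 0 DAP and 958 to 997 at 5 DAP. The second fall undid the earlier rise at chr9:16508311-16508644, to 35.5 ± 9.66 FPKM at 20 DAP, against 1050.1 FPKM at 10 DAP. Rises were found at chr9:14672399-14676289, to 69.6, 68.1 and 68.0 FPKM at 20 DAP against 1.45, 1.68 and 1.80 FPKM at 10 DAP, and at chr4:3604750-3607298, to 39.5 ± 1.57 FPKM against 1.15 ± 0.21 FPKM (SD, n = 3 each).

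Between 20 and 30 DAP 66 gene-poor loci (5.57%) rose and 40 (3.38%) fell, against 5.24% and 4.08% of all loci tested. The largest rise was that of chr4:1939752-1939973, to 430, 429 and 425 FPKM at 30 DAP, against 4.38, 10.0 and 6.23 FPKM at 20 DAP (log2 fold change 5.83 ± 0.30 (SE); limma, adjusted p = 2.94e-09). In stage flesh this locus of 222 bp had thus been high at 0 DAP, low from 5 to 20 DAP and high again at 30 DAP. At chr4:15621777-15622013 the values were 8.93, 4.47 and 10.6 FPKM in RF, and the locus is listed at 0 in all 3 CT libraries. It passed the filter only through RF, so no p-value is given. The largest falls were at chr9:14672399-14676289, to 1.90, 1.85 and 1.98 FPKM at 30 DAP against 69.6, 68.1 and 68.0 FPKM at 20 DAP, and at chr5:21334128-21334984, to 2.04 ± 0.55 FPKM against 31.0 ± 1.36 FPKM (SD, n = 3 each). Among the stage libraries the chromosome 9 locus was above 2 FPKM in those of 20 DAP alone.

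**Figure D5:**
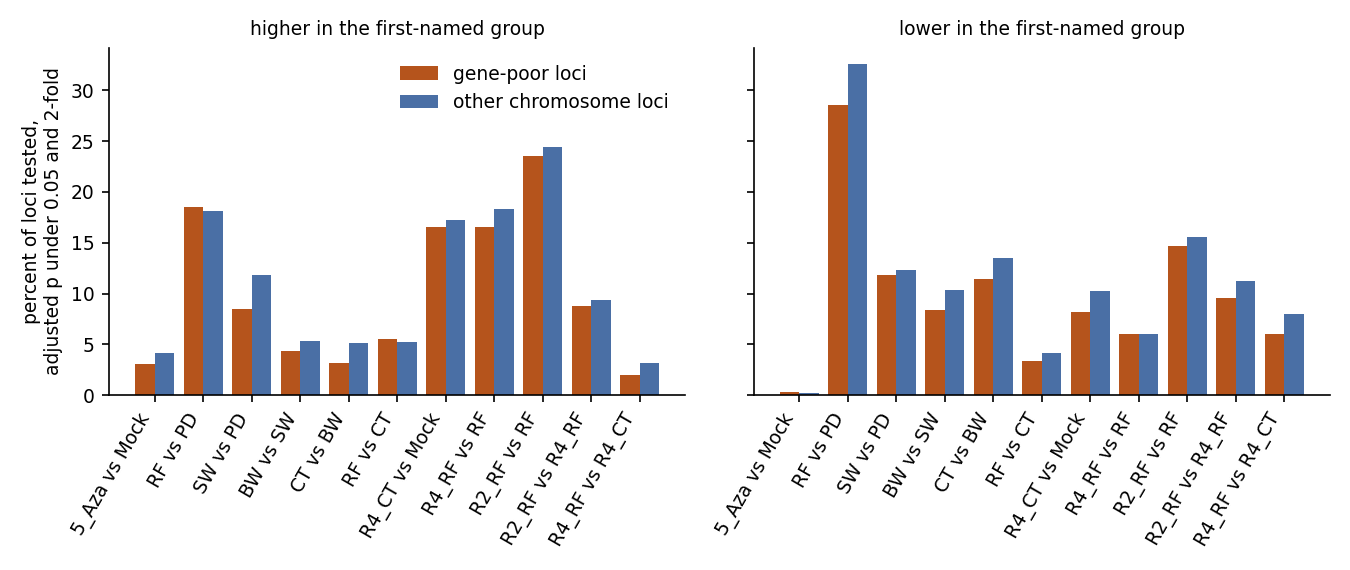
Percent of the loci tested in each comparison that were higher (left) or lower (right) by 2-fold or more at a limma adjusted p under 0.05, for gene-poor and other chromosome loci, with the comparison on the horizontal axis. Between RF and PD the gene-poor and other bars stand at 18.6% and 18.2% higher and 28.5% and 32.6% lower, and between CT and BW at 3.21% and 5.14% higher.

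CT and Mock flesh share the age label of 20 DAP but differ in number format, which bears on every comparison of rind with flesh. At 84 gene-poor loci (4.92%) the CT mean was at least 2-fold above the Mock mean and at 182 (10.7%) at least 2-fold below it, on the log2(FPKM + 1) scale and without a test, against 5.34% and 13.4% of all loci listed. At 3 gene-poor loci all 12 libraries with 6 decimals were at 5 FPKM or higher while all 12 stage libraries from SW to RF were listed at 0, as at 43 other loci, and the reverse was seen at 0 and 1. Neighbouring gene-poor loci could differ in this respect. The locus chr4:12225007-12225763 had a mean of 4.93 FPKM in CT and 794 FPKM in Mock, while chr4:12219347-12224943, which ends next to it, had means of 1851.9 FPKM in CT and 2763.0 FPKM in Mock, and both were chosen after their values were seen.

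In rind of 20 DAP more gene-poor loci were higher than lower relative to flesh of the same age label and number format, as over all loci tested. That flesh has no cultivar label and an earlier block of sample numbers. These cannot be told apart from tissue. Between R4_CT and Mock 193 of 1167 tested (16.5%) were higher and 96 (8.23%) lower by 2-fold or more (limma, adjusted p under 0.05), against 17.2% and 10.1% of all loci tested. Median-of-ratios scaling gave 171 higher and 108 lower, against 15.65% and 11.4% of all loci tested. With CT flesh in place of Mock, across number formats, 270 of 1181 (22.9%) were higher and 89 (7.54%) lower. Of other loci tested 25.1% and 7.60% were. The largest rise in rind was at chr5:18424399-18424734, with 111 and 104 FPKM in R4_CT, against 1.34, 0.399 and 0.174 FPKM in Mock (log2 fold change 6.11 ± 0.25 (SE); limma, adjusted p = 7.99e-08). The next was at chr4:8244660-8248343, with 50.7 and 53.6 FPKM in R4_CT, against 0, 0.0242 and 0 FPKM in Mock. Neither pair of groups overlapped, which was a condition for naming these loci.

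The largest fall in that rind was at chr1:23730727-23731539, with 6.10 and 5.52 FPKM in R4_CT, against 379, 367 and 363 FPKM in Mock (log2 fold change -5.77 ± 0.09 (SE); limma, adjusted p = 2.04e-15). In CT flesh the same locus was at 23.2, 18.2 and 24.1 FPKM, so its level differed widely between both sets of 20 DAP flesh. The second fall, at chr4:3604750-3607298, had 5.02 and 4.35 FPKM in R4_CT, against 274, 277 and 280 FPKM in Mock (log2 fold change -5.62 ± 0.10 (SE); limma, adjusted p = 1.29e-14). In CT flesh it was at 37.8 to 41.0 FPKM. Rind was the lower against either flesh at both loci.

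At 30 DAP the rind comparisons cross number formats, and both use the same 3 RF libraries as control. Between R4_RF and RF 195 of 1181 gene-poor loci tested (16.5%) were higher and 71 (6.01%) lower, against 18.1% and 6.06% of all loci tested. Between R2_RF and RF 278 (23.5%) were higher and 173 (14.6%) lower, against 24.4% and 15.5%. For R4_RF, median-of-ratios scaling shifted the median over all loci by -0.12 and gave 168 higher and 95 lower, against 15.7% and 7.8% of all loci tested. The locus chr4:1939752-1939973 was lower in both, with 4.04 and 3.71 FPKM in R4_RF and 0 in both R2_RF libraries, against 430, 429 and 425 FPKM in RF. It was at 11.2 to 15.6 FPKM in Mock flesh.

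At the other loci named for R4_RF against RF, the Mock values lay nearer to rind than to RF flesh. The locus chr4:15698173-15699387 had 70.3 and 72.6 FPKM in R4_RF and is listed at 0 in the RF libraries and in every other stage library. It had 78.7 to 84.3 FPKM in Mock. The locus chr4:12225007-12225763 had 422 and 453 FPKM in R4_RF, against 2.18, 1.76 and 1.82 FPKM in RF, with 781 to 817 FPKM in Mock. The locus chr9:25272079-25274349 is listed at 0 in both R4_RF libraries, against 9.87, 8.81 and 9.02 FPKM in RF, and is at 0 in all Mock, 5_Aza and rind libraries. These 3 also differed between the CT and Mock flesh of 20 DAP. Their CT and Mock means were 0 and 81 FPKM, 4.93 and 794 FPKM, and 14 and 0 FPKM, in the order named. The cause was not tested, and no fold change is given. At chr9:25272079-25274349 the stage libraries from PD to BW were also at or near 0.

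For R2_RF, Mock again lay nearer to rind at chr4:1939752-1939973, while the other named loci did not split that way. The locus chr9:25758894-25759496 had 1224 and 1268 FPKM in R2_RF, against 6.31, 6.30 and 7.06 FPKM in RF (log2 fold change 7.37 ± 0.12 (SE); limma, adjusted p = 1.01e-12), and 13.1 to 16.3 FPKM in Mock. The locus chr4:1853591-1853902 had 247 and 209 FPKM in R2_RF, against 0.519, 0.278 and 0.581 FPKM in RF, and 0 to 0.17 FPKM in Mock. Both were at their highest in flesh at 5 DAP. The fall at chr4:3604750-3607298 was to 0.442 and 0.0801 FPKM in R2_RF, against 94.1, 94.3 and 94.1 FPKM in RF. It was thus lower in R4_CT than in Mock and lower in R2_RF than in RF.

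Within rind, R2_RF and R4_RF share an age of 30 DAP and a number format. Gene-poor loci were higher in R2_RF at 102 of 1167 tested (8.74%) and lower at 112 (9.60%), against 9.37% and 11.1% of all loci tested, and with median-of-ratios scaling at 116 and 98, so the larger side changed, as it did over all loci, at 10.3% and 9.87%. The locus chr1:12157888-12160086 had 160 and 158 FPKM in R2_RF, against 3.61 and 2.59 FPKM in R4_RF (log2 fold change 5.30 ± 0.13 (SE); limma, adjusted p = 4.32e-13). The locus chr3:14069573-14071167 had 139 and 140 FPKM in R2_RF, against 4.14 and 3.03 FPKM in R4_RF. Lower in R2_RF were chr6:19771743-19776127, with 0.0424 and 0 FPKM against 17.9 and 18.4 FPKM in R4_RF, and chr4:3604750-3607298, with 0.442 and 0.0801 FPKM against 20.7 and 20.5 FPKM in R4_RF.

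Between R4_RF and R4_CT, rind of 30 and 20 DAP, 23 of 1167 gene-poor loci (1.97%) were higher and 70 (6.0%) lower, against 3.10% and 7.83% of all loci tested. The largest fall was at chr9:27493392-27495394, listed at 0 in both R4_RF libraries, against 18.5 and 20.8 FPKM in R4_CT. Among the Mock and rind libraries only those of R4_CT reached 1 FPKM there. This locus thus passed the filter only through R4_CT, and no p-value is given. The next, at chr3:14069573-14071167, had 4.14 and 3.03 FPKM in R4_RF, against 87.3 and 92.7 FPKM in R4_CT (log2 fold change -4.32 ± 0.10 (SE); limma, adjusted p = 5.94e-13). Both had also risen in flesh after 5_Aza. The rises were at chr7:11448473-11458540, with 7.41 and 7.97 FPKM in R4_RF against 0.463 and 0.41 FPKM in R4_CT, and at chr4:3604750-3607298, with 20.7 and 20.5 FPKM in R4_RF against 5.02 and 4.35 FPKM in R4_CT. At every locus named for rind the libraries of the groups compared did not overlap, which was a condition for naming them.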

How the data were processed

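RNA-seq levels of 30 watermelon fruit libraries were read from tables of the authors. Values were deposited as FPKM per locus, per the file headers. Of tools, HISAT2, fastp and SAMtools 1.5 appear in the submitters' processing notes, and the quantifier is not given in the sources used here. Groups, ages and replicate numbers came from the labels. In PD replicate 3, 11643 values were moved by 1 row, past a stray record, which brought their correlation with PD replicate 1 to 0.993 after 0.120. AP replicates 1 and 2 (highest correlation with any library besides these 2, 0.00864 and 0.00772) were not used per locus. Blocks of 50 rows with a best correlation under 0.8 within the group were left out, none with gene-poor loci, and AP replicate 3 lacks 1 gene-poor locus.

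Levels were compared on log2(FPKM + 1), computed from the deposited values, by limma 3.58.1 under R 4.3.3 with a trended, robust variance prior, which was tested on simulated data. A locus was tested if the number of libraries reaching 1 FPKM equalled or passed the size of the smallest labelled group. Benjamini-Hochberg adjustment ran over all loci tested, and calls needed an adjusted p under 0.05 and a 2-fold change on that scale, which understates changes of low loci. Fits took all 16 usable stage libraries, the 6 Mock and 5_Aza libraries, the 9 Mock and rind libraries, or the 12 CT, RF and rind libraries. Single libraries at 1 DAP and groups of 2 were assumed to vary like the rest. FPKM carry no depth, so no counting interval was given. Named loci are, per comparison and direction, the 2 largest changes whose groups have no overlap and whose higher mean reached 5 FPKM, besides the highest gene-poor locus and the stretch with the most loci per chromosome. The gene-poor rule, comparisons and lists were chosen with earlier results of these data known. Alternatives were another pseudocount, scaling, filter, window, limit of neighbours, length, replicates left out and a replicate block.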

Additional observations from a re-analysis of the deposited data

How the results depend on the processing

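Percents of gene-poor loci here are of all 1707, tested or not, unless given as percents of those tested. For 24 shares of loci called or silent, 356 of 364 alternative values lay within 1.5 times the value reported. Leaving out a library put the share called higher after 5_Aza between 1.17% and 2.05% (1.93% with all libraries), as fewer loci then passed the filter, and between 1.88% and 2.05% with the same loci tested, an alternative added after seeing the data. A pseudocount of 0.1 gave 8.79% lower at BW against SW (150 loci in place of 99). That was 12.7% of gene-poor loci tested against 15.3% of all loci tested, in place of 8.35% against 10.2%. It gave 12% lower at CT against BW (205 in place of 135). That was 17.3% of gene-poor loci tested against 20.3% of all loci tested, in place of 11.4% against 13.4%. It gave 5.98% higher and 4.39% lower at RF against CT (102 and 75 in place of 66 and 40). Higher were 8.61% of gene-poor loci tested against 7.68% of all loci tested, in place of 5.57% against 5.24%. Lower were 6.33% against 7.63%, in place of 3.38% against 4.08%. The same pseudocount gave 2.40% higher at R4_RF against R4_CT (41 in place of 23). That was 3.51% of gene-poor loci tested against 4.48% of all loci tested, in place of 1.97% against 3.10%. Median-of-ratios scaling gave 3.52% higher at CT against BW (60 loci in place of 38). That was 5.07% of gene-poor loci tested against 6.52% of all loci tested, in place of 3.21% against 5.00%. The cause was not tested for the pseudocount and scaling.

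Whether a shared replicate number marks a shared fruit or batch is not labelled. Same-numbered deviations from the group means correlated at -0.068 to 0.119, which with so few libraries a group cannot settle it. With a replicate block the 5_Aza counts were again 33 and 3 (1.93% higher), those of RF against PD 221 and 337, and those of R2_RF against RF 274 and 171.

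Read depth is unknown, so a value of 0 gives no detection limit. Spreads in rind rest on 2 libraries a group, and nothing was tested between gene-poor and other loci.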
